A study of Drosophila melanogaster with 9 samples.

Results

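CngA, Ac76E, Ac78C and Gyc89Da encode proteins that make or sense cyclic nucleotides, and their signal was followed in sorted mesodermal cells of Drosophila embryos with and without either of a pair of Forkhead genes. They were taken by name, with every probe set that the platform annotation gives to them alone, which came to 5 probe sets of 18769 tested and 4 genes of 11982 with a named probe set. CngA has 2 probe sets and each of the others has 1. The genes were picked because of their differences between these same groups, so the values below describe them and no test of those differences is given.

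Cyclic AMP and cyclic GMP are second messengers. Adenylyl cyclases make cyclic AMP, often under the control of G proteins coupled to receptors, and guanylyl cyclases make cyclic GMP, either as membrane receptors or as soluble enzymes that sense gases. Phosphodiesterases break both down, and protein kinases, the exchange factor Epac and cyclic nucleotide-gated channels carry the signal on. CngA encodes a subunit of such a cation channel, best known from sensory neurons. Ac76E and Ac78C encode membrane adenylyl cyclases, and Gyc89Da encodes an atypical soluble guanylyl cyclase known for its response to low oxygen and for pairing with Gyc88E.

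Cells that carried green fluorescent protein were sorted from embryos grown at 25 °C and collected between stage 11 and early stage 12, and total RNA from each sample was labelled with biotin and hybridised to 1 Affymetrix array. The 9 arrays form 3 groups of 3, and embryos of every group carried twi-GAL4 and UAS-2EGFP, so the fluorescent cells are those in which the twist driver was or had been active. Control embryos had these transgenes and neither deletion. The CHES-1-like null embryos carried Df(1)CHES-1-like1, a deletion on the X chromosome. Embryos of the jumu deficiency group were homozygous for Df(3R)Exel6157, described as null for jumu, with driver and reporter written on separate homologues, whereas the other genotypes write them together. A deficiency can remove genes beside the intended gene, and the effect of jumu alone cannot be told apart from theirs. Nor can it be told apart from any other genetic difference between the groups. Whether replicates stem from separate collections or sorts is not stated, so the p-values given rest on a spread among arrays that could be technical.

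Values are log2 signals per probe set, between 2.99 and 14.89. Because different probe sets bind with different strength, levels of different genes are not compared. Genes of odorant and gustatory receptors, with 125 probe sets, served to set the background. The median of their means over the arrays was 4.15, the 95th percentile was 5.28, and any signal under 5.28 is called background here. Within a group the arrays correlated at 0.998 to 0.999 (Pearson's r over probe sets). The targeted genes were lower where they should be. CHES-1-like read 4.04 ± 0.25 (SD, n = 3) in its null against 12 ± 0.03 in controls. A second CHES-1-like probe set read 6.32 ± 0.45 in the null, still above background, against 8.12 ± 0.18, and the first was 0.61 ± 0.13 (SE) lower in jumu-deficient embryos than in controls (limma adjusted p = 0.00557). The jumu probe set read 8.13 ± 0.12 in the deficiency against 10.52 ± 0.06, so jumu signal remained above background there. Of 7 listed mesoderm markers 3 had a named probe set, and twi, sna and htl lay between 9.31 and 10.28 in all 3 groups. Some neural and glial markers were also bright, with elav at 12.1 ± 0.03 and repo at 8.36 ± 0.11 in controls (SD, n = 3). Other neural markers were dim there, with nSyb at 6.06 ± 0.16 and brp at 6.02 ± 0.16, and para was at background in every group.

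CngA signal fell from bright to background in jumu-deficient embryos. Its bright probe set, 1635738_at, read 12.43, 12.45 and 12.46 in controls, 12.31, 12.37 and 12.32 in CHES-1-like-null embryos, and 3.35, 3.66 and 3.78 in jumu-deficient embryos. The control and CHES-1-like-null arrays were uniformly high and the jumu-deficient arrays were all at background. The group means were 12.45 ± 0.01, 12.33 ± 0.03 and 3.59 ± 0.22 (SD, n = 3). Relative to controls the difference was −8.86 ± 0.09 (SE of the fit) on the log2 scale in jumu-deficient embryos, rank 1 of 18769 probe sets by decrease, and rank 1 also with group means under 5.28 set to 5.28. Because the low group lies in the background, that difference has no exact fold. Control signal was 144-fold above the background value of 5.28, and at least 100-fold above 5.8, the highest 95th percentile of receptor probe sets on a single jumu-deficient array. In CHES-1-like-null embryos the difference from controls was −0.12 ± 0.09, small beside the other, although the arrays did not overlap. In bulk RNA of sorted cells, fewer cells of a type and less RNA per cell cannot be told apart.

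The other CngA probe set, 1628609_at, showed none of this. It read 4.57, 4.48 and 4.60 in controls, 4.42, 4.58 and 4.71 in CHES-1-like-null embryos and 4.54, 4.41 and 4.46 in jumu-deficient embryos. Every array was at background and the groups overlapped, so this probe set gave no signal above background in any group. Which transcripts or exons each probe set covers was not analysed here. As a measure of RNA integrity, the 3′ minus 5′ signal of the array's actin control transcript was 1.26 ± 0.03 in jumu-deficient embryos against 1.04 ± 0.01 in controls and 0.94 ± 0.06 in CHES-1-like-null embryos (log2, SD, n = 3). For the eIF-4A control it was 1.35 ± 0.03, 1.07 ± 0.07 and 1.15 ± 0.05 in the same order. For the GAPDH control it was 0.42 ± 0.16, 0.34 ± 0.09 and 0.08 ± 0.25, where jumu-deficient embryos and controls lay within their spread. The part of these shifts in the CngA values was not tested.

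**Figure D1:**
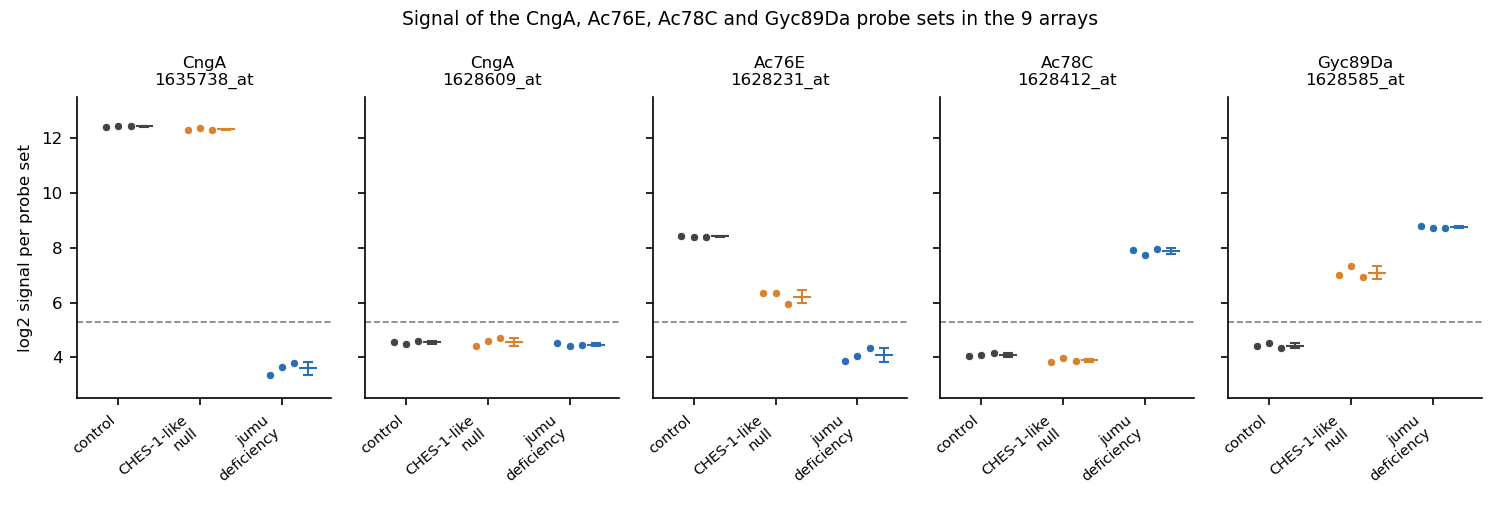
Log2 signal of the 5 probe sets of CngA, Ac76E, Ac78C and Gyc89Da, with 1 point per array, the group mean and SD (n = 3) to the right of the points, and the background value of 5.28 as a dashed line. The bright CngA probe set and Ac76E fall to background in jumu-deficient embryos, Ac78C and Gyc89Da rise from background, and CHES-1-like-null arrays lie between the other groups for Ac76E and Gyc89Da.

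Ac76E was lower in both mutants, with CHES-1-like-null embryos between the other groups. It read 8.44, 8.40 and 8.41 in controls, 6.34, 6.36 and 5.94 in CHES-1-like-null embryos, and 3.86, 4.06 and 4.35 in jumu-deficient embryos. The 3 groups stood apart without overlap, and the jumu-deficient arrays were at background. In CHES-1-like-null embryos, Ac76E differed from controls by −2.21 ± 0.14 (SE), which leaves 21.7% of the control signal. In jumu-deficient embryos the difference was −4.33 ± 0.14, and control signal was 8.8-fold above 5.28 and at least 6.14-fold above 5.8. Between the mutants the difference was −2.12 ± 0.14, and CHES-1-like-null signal was 1.91-fold above 5.28 and at least 1.33-fold above 5.8.

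Ac78C, the other adenylyl cyclase gene, took the opposite course and did so in jumu-deficient embryos. Its arrays read 4.04, 4.08 and 4.18 in controls, 3.85, 3.96 and 3.87 in CHES-1-like-null embryos, and 7.94, 7.75 and 7.97 in jumu-deficient embryos. Controls and CHES-1-like-null embryos were both at background, so the −0.20 ± 0.07 (SE) between them says nothing of expression, and no fold is given. Jumu-deficient embryos exceeded controls by 3.79 ± 0.07 and CHES-1-like-null embryos by 3.99 ± 0.07. Ac78C signal in jumu-deficient embryos was 6.09-fold above 5.28, and at least 5.99-fold above 5.3, the highest such percentile of a control array.

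Gyc89Da was higher in both mutants. It read 4.42, 4.53 and 4.34 in controls, 7.02, 7.35 and 6.93 in CHES-1-like-null embryos, and 8.81, 8.72 and 8.74 in jumu-deficient embryos. Controls were at background, CHES-1-like-null embryos were intermediate, and the groups did not overlap. Gyc89Da exceeded controls by 2.67 ± 0.10 (SE) in CHES-1-like-null embryos and by 4.33 ± 0.10 in jumu-deficient embryos. Because controls lie in the background, these differences have no exact fold. Signal in these mutants was 3.53-fold and 11.1-fold above the background value of 5.28. Against 5.3, the highest such percentile of a control array, Gyc89Da was at least 3.47-fold and at least 11-fold higher. Jumu-deficient embryos exceeded CHES-1-like-null embryos by 1.66 ± 0.10, or 3.16-fold, with both groups above background.

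The order of the groups therefore differed from gene to gene. Signal of Ac76E ran from controls through CHES-1-like-null embryos down to jumu-deficient embryos, and Gyc89Da ran the other way through the same order. For CngA and Ac78C jumu-deficient embryos stood far from the remaining groups, which lay 0.12 and 0.20 apart. Both mutants were set against the same controls, so their values are not independent of each other. In jumu-deficient embryos 4 of the 5 probe sets did not overlap with controls, against 46.8% of all probe sets. The same held for 4 of 5 in CHES-1-like-null embryos, against 42.7%, and for 4 of 5 between the mutants, against 43.6%. These genes were picked from these contrasts, and the counts support nothing further.

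The other genes of the pathway were taken from lists of enzymes, channels, effectors and upstream receptors, which name 72 genes besides these 4, of which 60 had a named probe set. Each gene is represented by its brightest probe set. In CHES-1-like-null embryos 9 of the 60 rose and 7 fell (limma, adjusted p under 0.05), which is 26.7% called against 35.7% of all genes (17.1% higher and 18.6% lower). In jumu-deficient embryos 20 rose and 6 fell, 43.3% against 38.6% (17.6% higher and 21% lower). Between the mutants 18 were higher in jumu-deficient embryos and 5 lower, 38.3% against 42.3% (21.2% higher and 21.1% lower). In both comparisons with jumu-deficient embryos, increases took a larger share of the 60 genes than of all genes and decreases a smaller one, and this difference was not tested. Changes of at least 2-fold were made by 0 genes of the 60 in CHES-1-like-null embryos, 2 in jumu-deficient embryos and 3 between the mutants, against 1.55%, 2.79% and 3.69% of all genes. The 60 genes had median differences of 0.02, 0.09 and 0.06 in the order of these comparisons, against 0.03, 0.01 and 0.00 over all genes.

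Scaling bears on the direction of these counts. With each array centred on its median, 12 pathway genes rose and 7 fell in jumu-deficient embryos, and the share of higher calls over all probe sets went from 46.1% to 31.4%. Of the 60 genes, 25 were at background in all 3 groups, and these gave 7 of the 26 calls in jumu-deficient embryos.

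Adenylyl cyclase genes other than Ac76E and Ac78C showed small differences, but 6 of the 9 measured were at background in every group. The signal of those 6 cannot show a decrease. Of 9 measured, 1 rose and 1 fell in CHES-1-like-null embryos (against 17.1% and 18.6% of all genes), and 3 rose and 1 fell in jumu-deficient embryos (against 17.6% and 21% of all genes). The decrease was in both cases that of rut, the calcium-responsive cyclase known from learning mutants. It read 7.47, 7.41 and 7.39 in controls, 6.92, 6.96 and 6.77 in CHES-1-like-null embryos, and 6.87, 6.93 and 6.92 in jumu-deficient embryos. All mutant arrays were below all control arrays, and the mutants lay together. The rut differences from controls were −0.54 ± 0.05 (SE, limma adjusted p = 6.2e-05) and −0.52 ± 0.05 (adjusted p = 7.25e-05). Ac13E was higher in CHES-1-like-null embryos by 0.19 ± 0.06 (adjusted p = 0.0363), a call lost without any of controls 1, 2 and 3 or CHES-1-like null replicates 1 and 3. The rises in jumu-deficient embryos were those of ACXA, ACXD and ACXE at 0.21 to 0.39. ACXA and ACXE were at background, and the calls of ACXA and ACXD were lost under several alternatives, among them centring each array.

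Among the other soluble guanylyl cyclase genes, neither Gyc88E nor Gyc89Db rose in either mutant. Gyc88E, with which Gyc89Da is known to pair, was at background in every group, with means of 4.68, 4.56 and 4.55 in controls, CHES-1-like-null embryos and jumu-deficient embryos. Gyc89Db, the adjacent gene and a cyclase of the same atypical kind, read 6.01, 5.91 and 5.90 in controls, 5.54, 5.29 and 5.36 in CHES-1-like-null embryos, and 5.90, 5.85 and 5.87 in jumu-deficient embryos. It was low in CHES-1-like-null embryos alone. Gyc89Db fell by 0.54 ± 0.07 (SE) there on the log2 scale (limma adjusted p = 0.000224) and differed by −0.07 ± 0.07 in jumu-deficient embryos (adjusted p = 0.503), and the mutants lay 0.48 ± 0.07 apart (adjusted p = 0.000354). Gycalpha99B, the subunit of the nitric oxide receptor, passed in jumu-deficient embryos at 0.21 ± 0.07 (adjusted p = 0.0499), a call lost under 11 of 16 alternatives.

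Receptor guanylyl cyclase genes gave the largest decreases among the remaining cyclases. In CHES-1-like-null embryos 2 of 6 rose and 1 fell (against 17.1% and 18.6% of all genes), and in jumu-deficient embryos 1 rose and 2 fell (against 17.6% and 21% of all genes). An increase in the former was that of Gyc32E at 0.32 ± 0.08 (SE, limma adjusted p = 0.0144), which was at background in every group and lost its call without control replicate 1 or 3. CG31183 read 7.92, 7.87 and 7.67 in controls, 6.78, 7.03 and 6.74 in CHES-1-like-null embryos, and 7, 6.75 and 7.05 in jumu-deficient embryos, lower in each mutant array than in any control array. Its differences from controls were −0.97 ± 0.10 (SE, limma adjusted p = 0.000104) and −0.88 ± 0.10 (adjusted p = 0.000171). CG3216 fell in jumu-deficient embryos by 0.90 ± 0.08 on the log2 scale (adjusted p = 2.52e-05), to a mean of 4.88 that lies in the background, and was −0.20 ± 0.08 from controls in CHES-1-like-null embryos (adjusted p = 0.0984). CG34357 rose in both mutants, by 0.23 ± 0.05 in CHES-1-like-null embryos and 0.22 ± 0.05 in jumu-deficient embryos, and with the mean of its 4 probe sets the latter gave adjusted p = 0.703.

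**Figure D2:**
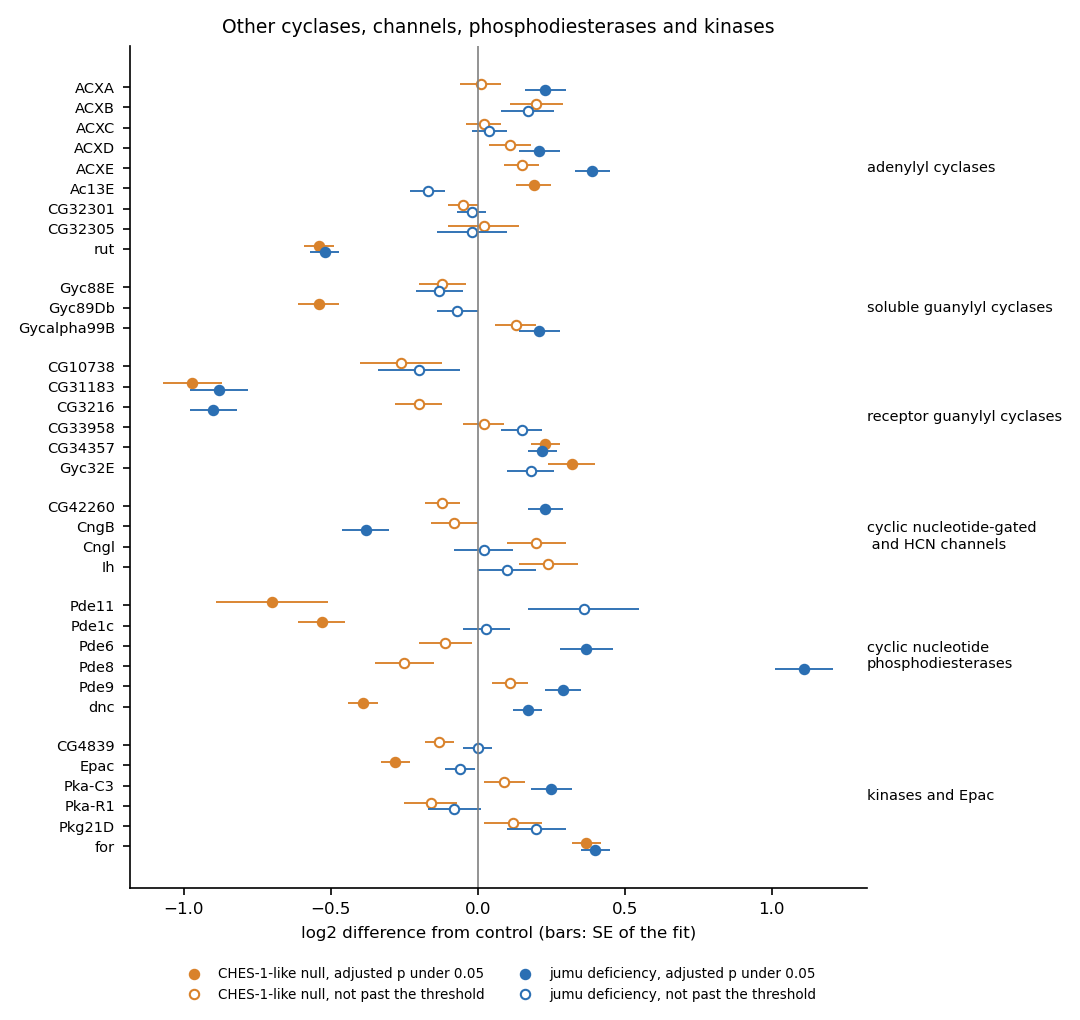
Log2 difference from control, with the SE of the fit as a bar, of the measured cyclases, channels, phosphodiesterases, kinases and Epac other than CngA, Ac76E, Ac78C and Gyc89Da, by family. Filled points passed the adjusted p of 0.05 and open points did not, and phosphodiesterase genes lie further to the right in jumu-deficient embryos than in CHES-1-like-null embryos.

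None of the remaining channel genes changed as CngA did. CngB, a further subunit of cyclic nucleotide-gated channels, was at background in every group and read 0.38 ± 0.08 (SE) lower in jumu-deficient embryos on the log2 scale (limma adjusted p = 0.00386). CG42260, of the same channel family, rose there by 0.23 ± 0.06 (adjusted p = 0.0128), a call lost after centring each array (adjusted p = 0.0908). Cngl and Ih, a channel opened by hyperpolarisation and modulated by cyclic nucleotides, did not pass at their brightest probe set in any comparison, although 2 dimmer probe sets of Cngl were higher in CHES-1-like-null embryos by 0.65 ± 0.07 and 0.66 ± 0.11, the latter at background in every group. In CHES-1-like-null embryos 0 of 4 channel genes passed with limma at their brightest probe set, against 35.7% of all genes. Of these 4, 1 had an unadjusted p under 0.05 there. In jumu-deficient embryos 1 of the 4 rose and 1 fell, against 17.6% and 21% of all genes.

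Phosphodiesterase genes were higher in jumu-deficient embryos than in CHES-1-like-null embryos in 6 of 6 cases, where 21.2% of all genes were higher. In that comparison Pde6 was at background in every group, and the Pde9 difference of 0.18 ± 0.06 (limma adjusted p = 0.0317) lost its call under 6 of 16 alternatives, among them the mean of its probe sets (adjusted p = 0.582), fitting the compared groups alone, and leaving out replicates 1 or 2 of the CHES-1-like null or 1 or 3 of the jumu deficiency. In CHES-1-like-null embryos 3 of 6 fell and 0 rose relative to controls, where 18.6% of all genes were lower. In jumu-deficient embryos 4 of 6 rose and 0 fell, where 17.6% of all genes were higher. After centring each array, dnc did not pass in jumu-deficient embryos and Pde1c stood at −0.03 there in place of 0.03. Pde8, named for the cyclic AMP phosphodiesterase of mammals, read 5.46, 5.46 and 5.35 in controls, 5.38, 5.06 and 5.06 in CHES-1-like-null embryos, and 6.66, 6.34 and 6.59 in jumu-deficient embryos. The jumu-deficient arrays stood above the rest, by 1.11 ± 0.10 (SE) over controls (limma adjusted p = 3.75e-05) and 1.36 ± 0.10 over CHES-1-like-null embryos (adjusted p = 6.96e-06), whose mean of 5.17 is at background, so that the latter size is not exact.

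The cyclic AMP phosphodiesterase gene dnc, known from learning mutants, read 7.85, 7.79 and 7.89 in controls, 7.43, 7.53 and 7.40 in CHES-1-like-null embryos, and 7.96, 8.06 and 8.01 in jumu-deficient embryos. Its 3 groups did not overlap, with controls in the middle. It fell by 0.39 ± 0.05 (SE) in CHES-1-like-null embryos on the log2 scale (limma adjusted p = 0.000287). In jumu-deficient embryos it was 0.17 ± 0.05 higher (adjusted p = 0.0288), a call lost without control replicates 1 or 2 or jumu deficiency replicates 2 or 3, with a replicate block and after centring. Pde1c, a calcium-dependent enzyme, fell by 0.53 ± 0.08 in CHES-1-like-null embryos (adjusted p = 0.00068) and was at 0.03 ± 0.08 in jumu-deficient embryos (adjusted p = 0.824). These values are of its brightest probe set, 1624542_at. Of its 3 further probe sets 1 was above background in every group. It differed by 0.22 ± 0.16 in CHES-1-like-null embryos (limma adjusted p = 0.343), −0.02 ± 0.16 in jumu-deficient embryos (adjusted p = 0.952) and −0.24 ± 0.16 between the mutants (adjusted p = 0.3). Another, at background in every group, differed by −0.53 ± 0.10 in CHES-1-like-null embryos and by 0.54 ± 0.10 in jumu-deficient embryos. The last, also at background, differed by 0.09 ± 0.07 and −0.01 ± 0.07. Pde11 differed by −0.70 ± 0.19 in CHES-1-like-null embryos (adjusted p = 0.0238). That call was lost with a robust variance trend, without any single control replicate or without CHES-1-like null replicate 3. Between the mutants Pde11 differed by 1.06 ± 0.19 (adjusted p = 0.002). Its other probe set, above background in every group, differed by −0.07 ± 0.12 and 0.03 ± 0.12 in these comparisons (limma adjusted p = 0.733 and 0.875). Pde9 and Pde6, enzymes for cyclic GMP, rose in jumu-deficient embryos by 0.29 ± 0.06 and 0.37 ± 0.09, with Pde6 at background throughout and the Pde9 call lost with the mean of its 3 probe sets (adjusted p = 0.0729).

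Kinases and Epac changed by small steps, and 3 of the 6 genes measured were at background in every group. Of 6 measured, 1 rose and 1 fell in CHES-1-like-null embryos (against 17.1% and 18.6% of all genes), and 2 rose and 0 fell in jumu-deficient embryos (against 17.6% and 21% of all genes). The cyclic GMP-dependent kinase gene for rose in both mutants, from 10.99, 10.95 and 11.02 in controls to 11.33, 11.32 and 11.42 in CHES-1-like-null embryos and 11.41, 11.34 and 11.43 in jumu-deficient embryos. Every mutant array was above every control array, and the differences for this gene were 0.37 ± 0.05 (SE, limma adjusted p = 0.000237) and 0.40 ± 0.05 (adjusted p = 0.000122). Epac fell by 0.28 ± 0.05 in CHES-1-like-null embryos (adjusted p = 0.00198), with adjusted p = 0.265 for the mean of its 2 probe sets. Pka-C3 passed in jumu-deficient embryos while at background. Pka-R1, a regulatory subunit of the cyclic AMP-dependent kinase, did not pass, at −0.16 ± 0.09 and −0.08 ± 0.09.

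Upstream of the cyclases, 1 of 15 receptor and ligand genes rose in CHES-1-like-null embryos and 4 rose in jumu-deficient embryos, with 0 falling in either. The shares of all genes were 17.1% higher and 18.6% lower in the former and 17.6% and 21% in the latter. Because 10 of the 15 were at background in every group, their signal cannot show a decrease, and the count of 0 falling says little. Of the 4 that rose in jumu-deficient embryos, 5-HT7 and Dh44-R1 were at background in every group, and the Dh44-R1 call was lost under 10 of 15 alternatives. Dh31-R did not pass against controls at its brightest probe set, and a dimmer probe set was 1.26 ± 0.12 (SE) higher in jumu-deficient embryos (limma adjusted p = 3.13e-05). Dh44-R1 and Dh31-R were named after their values were seen. Pdfr, the receptor for pigment-dispersing factor, which signals through cyclic AMP, rose from 5.51 ± 0.06 (SD, n = 3) by 0.60 ± 0.05 (SE) in CHES-1-like-null embryos (limma adjusted p = 2.27e-05) and 0.77 ± 0.05 in jumu-deficient embryos (adjusted p = 3.52e-06). The serotonin receptor gene 5-HT1A, whose product inhibits adenylyl cyclase, read 3.99, 3.88 and 3.82 in controls, 3.93, 3.72 and 3.62 in CHES-1-like-null embryos, and 5.05, 5.33 and 5.54 in jumu-deficient embryos. It passed there (adjusted p = 1.98e-05) with a mean of 5.31 at the edge of the background. Each of those arrays lay under its own 95th percentile of receptor probe sets, so the size of the difference is not measured. Of 5 G protein and nitric oxide synthase genes 2 rose in CHES-1-like-null embryos, led by the inhibitory Galphai at 0.32 ± 0.04 (adjusted p = 0.000166), and 1 rose in jumu-deficient embryos, Galphao at 0.21 ± 0.04. Of 6 genes of kinase anchors and the CREB branch 2 rose and 0 fell in CHES-1-like-null embryos, and 3 rose and 2 fell in jumu-deficient embryos. The anchor gene rg rose by 0.47 ± 0.07 and 0.69 ± 0.07 in these mutants. The brightest probe set of the transcription factor gene CrebB fell by 0.41 ± 0.07 in jumu-deficient embryos (adjusted p = 0.00223). Its other probe set, above background in every group, differed by 0 ± 0.05 there (limma adjusted p = 0.968).

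Several pathway genes have more than 1 probe set, as CngA does. Of the genes called in CHES-1-like-null embryos 6 have further probe sets, and 1 of those 10 probe sets also passed in the same direction. In jumu-deficient embryos 0 of 8 did so for 5 genes, and between the mutants 2 of 12 for 9 genes. Several of these further probe sets were at background in every group, among them those of Ac13E, Epac and rg, and could not show a change. The share of further probe sets that pass likewise over all genes was not computed. The calls given here are those of the brightest probe set.

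The genes that lie beside each of the 4 along the chromosome were read next. CngA lies on arm 2R and Ac76E and Ac78C on 3L, apart from CHES-1-like on the X and jumu on 3R. Gyc89Da shares the arm of jumu, with 656 measured genes between them. Of the 3 measured genes on each side of CngA, 2 fell by over 2-fold in jumu-deficient embryos, where 2.79% of all genes changed by at least 2-fold. Both lie directly next to CngA on the same side. The nearest, CG15708, read 7.23, 7.19 and 7.14 in controls, 6.89, 7 and 6.94 in CHES-1-like-null embryos, and 4.75, 4.91 and 5.08 in jumu-deficient embryos, where it had reached background. Its difference from controls in jumu-deficient embryos was −2.28 ± 0.08 (SE, limma adjusted p = 4.16e-08).

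Beyond CG15708 lies krimp, a gene of the piRNA pathway, which silences transposons in germ cells. It read 7.27, 7.18 and 7.45 in controls, 6.78, 6.56 and 6.43 in CHES-1-like-null embryos, and 4.63, 4.40 and 4.51 in jumu-deficient embryos. The jumu-deficient arrays were again at background, and their difference from controls was −2.79 ± 0.10 (SE, limma adjusted p = 7.34e-08). In CHES-1-like-null embryos krimp fell by 0.71 ± 0.10 (adjusted p = 0.000624), unlike CngA. The next gene beyond, CG3687, and fidipidine on the other side were at background in every group, so their signal cannot show a decrease, and csul fell by 0.39 ± 0.05 in jumu-deficient embryos (adjusted p = 0.000194). Over 10 measured genes on each side of CngA, 4 of 20 were lower and 1 higher in jumu-deficient embryos, against 21% and 17.6% of all genes. Germ cell markers as a list moved the same way, since 3 of 4 measured were lower and 0 higher in jumu-deficient embryos. The log2 of their summed linear signal was 7.69 to 7.73 there, against 9.05 to 9.11 in controls and 9.65 to 9.71 in CHES-1-like-null embryos. krimp is itself in that list, which was chosen with earlier results of these data known, and the defining marker vas was at background in every group. The part of germ cells in these values was not tested.

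Among the 10 nearest measured genes on each side of the other genes, 1 changed by at least 2-fold against controls, in like direction but by less. CG10405, the third measured gene on the left of Gyc89Da, read 7.29, 7.30 and 7.31 in controls, 8.37, 8.36 and 8.28 in CHES-1-like-null embryos, and 9.86, 9.73 and 9.89 in jumu-deficient embryos. It rose in the order that Gyc89Da followed, by 1.04 ± 0.05 (SE, limma adjusted p = 9.13e-07) and 2.53 ± 0.05 (adjusted p = 1.56e-09). The genes between them, CSN5 and CG14883, differed from controls by −0.07 ± 0.04 and −0.19 ± 0.05 in jumu-deficient embryos. Around Ac76E and around Ac78C, 0 of the 20 nearest measured genes changed by 2-fold relative to controls in either mutant. Over all genes 1.55% did so in CHES-1-like-null embryos and 2.79% in jumu-deficient embryos, so a count of 0 among 20 says little. Near Ac78C, AsnS rose by 0.94 ± 0.09 in CHES-1-like-null embryos and fell by 0.40 ± 0.09 in jumu-deficient embryos, and CG10565 fell by 0.31 ± 0.04 and 0.27 ± 0.04. CG32219 overlaps the span of Ac76E and was at background, with group means of 3.91 to 4.

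**Figure D3:**
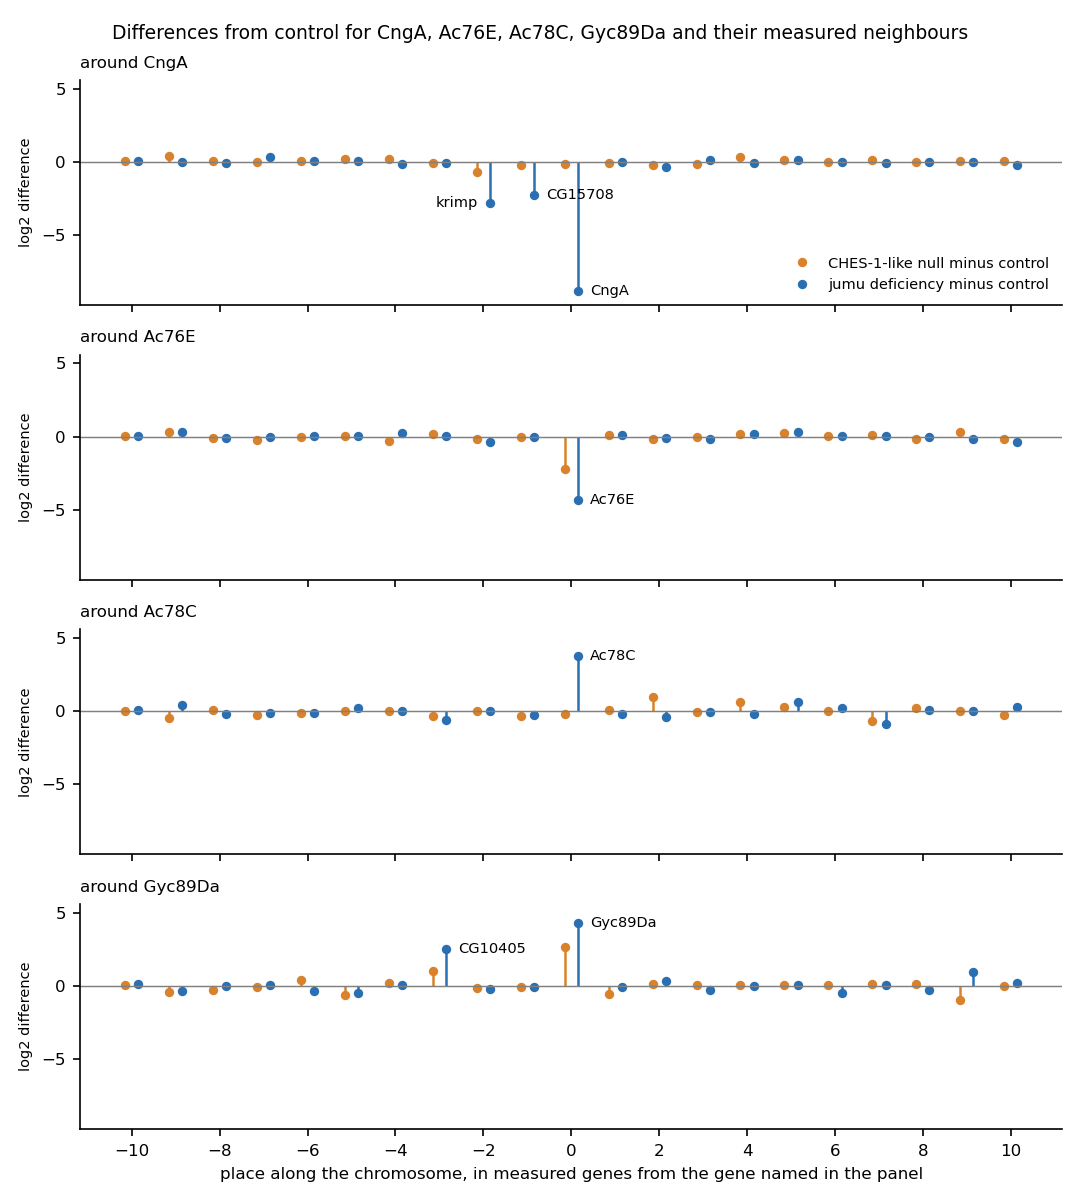
Log2 difference from control of CngA, Ac76E, Ac78C and Gyc89Da and of the 10 nearest measured genes on each side, placed by their order along the chromosome, for CHES-1-like-null embryos and jumu-deficient embryos. Beside CngA, CG15708 and krimp were lower in jumu-deficient embryos at −2.28 and −2.79, and near Gyc89Da, CG10405 was higher at 2.53, while no neighbour of Ac76E or Ac78C reached 2-fold against controls.

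Genes of the most alike profile were sought by Pearson's r over the 9 arrays among 611 genes whose group means span at least 1 log2 unit. The 9 arrays share 3 group means, so r near 1 says little more than that the groups stand in like proportion, and no test applies. For CngA the closest were CG1103 (r = 0.9992), CG30043, CG15128, CG6180 and Pax, the gene of the adhesion protein paxillin, which were lower in jumu-deficient embryos by 1.11 to 4.33. For Ac76E they were gol, Nt5c, CG6282, thw and mtDNA-helicase, of which thw spanned most, from 10.86 in controls through 8.17 to 5.46. For Ac78C they were Bruce, slbo, Ance-5, mthl4 and Gr98b, higher in jumu-deficient embryos by 1.58 to 5.4. For Gyc89Da they were Karl, CG7878, the glutathione transferase gene GstD1, sdk and heca, higher by 1.00 to 2.06. An r above 0.99 was reached by 16, 7, 46 and 6 of the 611 genes for CngA, Ac76E, Ac78C and Gyc89Da.

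**Figure D4:**
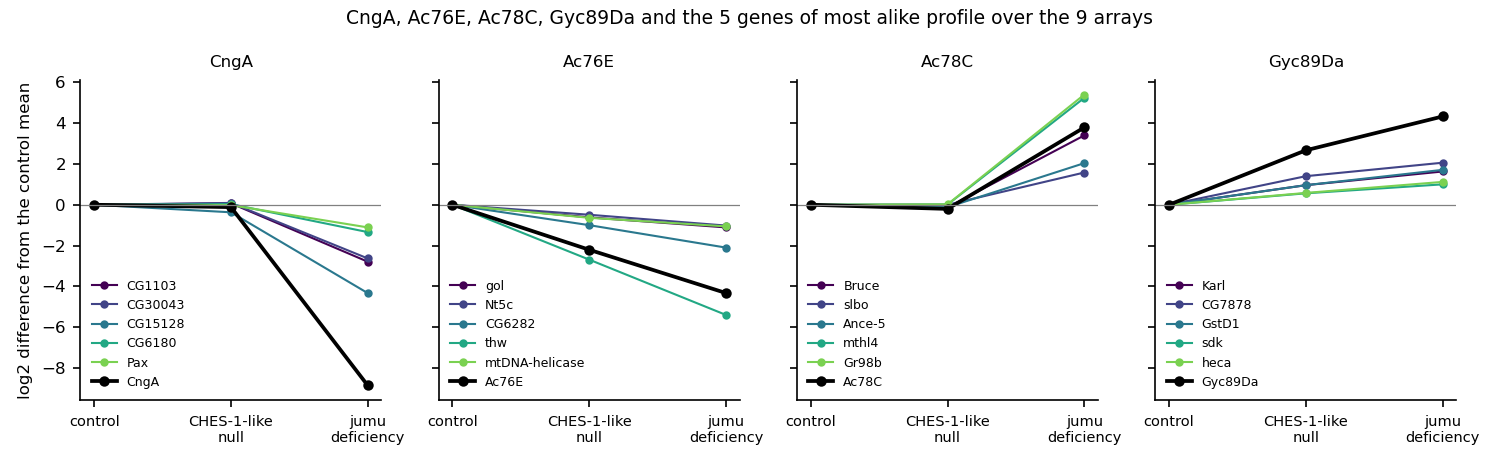
Log2 difference of each group mean from the control mean for CngA (bright probe set), Ac76E, Ac78C and Gyc89Da in black, and for the 5 genes of highest r to each in colour. CngA and Ac78C part from 0 in jumu-deficient embryos, whereas Ac76E and Gyc89Da and their like genes also part in CHES-1-like-null embryos.

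Marker genes of other cell types moved between the groups and are given beside these results. In CHES-1-like-null embryos 7 of 7 epidermis, 3 of 3 trachea, 4 of 4 glia and 3 of 4 endoderm markers rose, and 0 of these fell, where 17.1% of all genes were higher and 18.6% lower. Sums are given as the log2 of the summed linear signal of a list, in which the brightest genes weigh most. For epidermis the sum was 13.08 to 13.12 against 12.31 to 12.36 in controls, and for trachea 10.08 to 10.51 against 9.22 to 9.42. For glia it was 13.24 to 13.31 against 12.98 to 13.03, and for endoderm 11.13 to 11.24 against 10.62 to 10.66. In jumu-deficient embryos, where 17.6% of all genes were higher and 21% lower, 1 of 7 epidermis markers rose and 2 fell, with a sum of 12.17 to 12.22, 1 of 3 trachea markers rose and 1 fell, with 9.59 to 9.72, 1 of 4 glia markers rose and 1 fell, with 13.16 to 13.27, and 1 of 4 endoderm markers rose, with 10.64 to 10.7. Of 8 neural markers 2 rose in CHES-1-like-null embryos, with a sum of 13.15 to 13.24, while in jumu-deficient embryos 1 rose and 4 fell and their sum was 12.51 to 12.91 against 13.06 to 13.08. Of 9 haemocyte and fat body markers 2 rose and 2 fell in CHES-1-like-null embryos, with a sum of 14.44 to 14.47, and in jumu-deficient embryos 3 rose and 0 fell, with a sum of 15.04 to 15.08 against 14.66 to 14.69. Of the 3 mesoderm markers 1 rose and 1 fell in CHES-1-like-null embryos and 2 rose and 1 fell in jumu-deficient embryos, with sums of 11.35 to 11.5 over all arrays. In CHES-1-like-null embryos 2 of 4 germ cell markers rose and 1 fell. The marker lists were chosen with earlier results of these data known, so these counts are a description only. The part of these cell types in the values of CngA, Ac76E, Ac78C and Gyc89Da was not tested.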

How the data were processed

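The authors deposited log2 signals per probe set, and per the submitters' processing notes the R package affy was used. Not given in the sources used here: its version, the background correction and the summary method. Array medians lay between 5.41 and 5.50. The table holds 18952 probe sets, of which 183 are array controls and did not enter. In the platform annotation 13647 probe sets have 1 gene, 402 have several and 4720 are not listed, and symbols were updated to Release 6 for 13544, an annotation used for names and gene order alone. With limma 3.58.1 (R 4.3.3), 1 mean per group was estimated over all 9 arrays with 6 residual degrees of freedom, and p-values were adjusted by Benjamini-Hochberg over 18769 probe sets. The number of arrays limits precision. The fit was tested on simulated data. Named genes are CngA, Ac76E, Ac78C and Gyc89Da, measured cyclases, channels, phosphodiesterases, kinases and Epac, the 3 largest changes per direction in the remaining pathway lists, the 3 nearest measured genes on each side and the 5 of most alike profile. These genes and lists were chosen with earlier results of these data known. Arrays were not treated as paired by replicate number. Deviations of same-numbered arrays from their group means correlated at −0.14 to 0.15, and those of differently numbered arrays at −0.25 to 0.21. With 3 arrays per group these values cannot exclude pairing. Alternatives were quantile normalization, median centring, leaving out the dimmest 40% of probe sets, a replicate block, fitting the compared groups alone, a robust variance trend, leaving out each array, the mean of a gene's probe sets and a 1.5-fold minimum.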

Additional observations from a re-analysis of the deposited data

How the results depend on the processing

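The differences of the CngA, Ac76E, Ac78C and Gyc89Da probe sets from controls and between the mutants kept to narrow ranges under the 15 alternatives that apply to them, except that the dim CngA probe set has no value with the dimmest 40% left out. CngA in jumu-deficient embryos ran from −8.95 to −8.73 against controls, Ac76E from −4.46 to −4.21, Ac78C from 3.73 to 3.86 and Gyc89Da from 4.27 to 4.38, and in CHES-1-like-null embryos Ac76E ran from −2.28 to −2.07 and Gyc89Da from 2.54 to 2.76. The small CngA difference in CHES-1-like-null embryos moved to −0.09 with quantile normalization and −0.15 after centring. Setting the low group at the highest background of its own arrays, an alternative chosen after seeing the data, moved the folds of CngA from 144 to 100 against controls and from 133 to 92.6 between the mutants, and those of Ac76E from 8.8 to 6.14 and from 1.91 to 1.33. Counts of pathway genes depended on the minimum change. With at least 1.5-fold, 1 rose and 2 fell in CHES-1-like-null embryos (3 in all), 4 rose and 2 fell in jumu-deficient embryos (6 in all), and 3 were higher and 1 lower between the mutants (4 in all). In jumu-deficient embryos 12 rose after centring and 13 among the 36 genes left without the dimmest probe sets. Leaving out 1 array at a time gave 5 to 8 increases in CHES-1-like-null embryos, the lowest without control replicate 3. With the replicate block 14, 22 and 22 pathway genes passed in CHES-1-like-null embryos, jumu-deficient embryos and between the mutants, against 16, 26 and 23. Of these 16, 26 and 23 calls, 10, 15 and 17 held under the alternatives other than the minimum change, and for the others the cause was not tested. No direction of a called gene reversed. Dim probe sets limit what can be seen, since 25 of 60 pathway genes never rose above background.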

Other observations

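The background value itself differed between the groups. The 95th percentile of the 125 chemoreceptor probe sets was 5.18 to 5.30 in the control arrays, 5.18 to 5.26 in CHES-1-like-null embryos and 5.46 to 5.80 in jumu-deficient embryos, while their medians lay between 4.05 and 4.16. A member of that set, the gustatory receptor gene Gr98b, read 3.79 ± 0.04, 3.80 ± 0.10 and 9.18 ± 0.11 (SD, n = 3) in controls, CHES-1-like-null embryos and jumu-deficient embryos. With the jumu-deficient group's own percentiles in place of 5.28, the CngA and Ac76E arrays of that group were still at background, since their highest readings were 3.78 and 4.35.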
